A study of Homo sapiens with 2 samples.

Results

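The 10 basal and stress keratins of stratified epithelium were examined in HBEC-3KT, an immortalized line of human bronchial epithelial cells. They are KRT5, KRT14, KRT15, KRT17, KRT6A, KRT6B, KRT6C, KRT16, KRT13 and KRT4. They were chosen by gene symbol from a table of 60619 rows, and all 10 had a row. One library came from cells transduced with a pLenti6 lentivirus that carries human CBS, the gene of cystathionine beta-synthase. The other came from cells that received pLenti6 without an insert. Virus was left on the cells for 4 to 8 hours, and transduced cells were kept by blasticidin (10 µg/mL). Both groups were kept 4 to 5 days on gelatin in a medium labelled pneumocult EX. The labels do not state how long selection lasted, which promoter drove CBS or whether cells were cloned. The design asked how CBS expression influences Polycomb repressive complex 2, a histone methyltransferase complex that holds genes silent. Each group held 1 library, so no test between the conditions was possible and the spread between cultures is unknown.

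Keratins are the intermediate filament proteins of epithelia. A filament is built from pairs of 1 acidic type I and 1 basic type II chain, so each cell makes both types. KRT5 with KRT14 or KRT15 is the pair of basal cells, the progenitor layer of skin, oesophagus and airway. KRT6A, KRT6B and KRT6C with KRT16 and KRT17 are known as stress keratins, which many stratified epithelia make after wounding or in fast growth. KRT4 and KRT13 are the pair of the upper layers of moist stratified linings such as the oesophagus.

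The libraries held 20785957 estimated counts with CBS and 20433062 without. Where a pair of values is joined by "against" or "and" with no library named, the CBS library comes first. CBS itself had 3669 against 280 counts, higher in the library labelled with it. Basal and epithelial markers were present in both, with 5136 and 4946 counts of TP63, the transcription factor that defines basal cells. CDH1, the epithelial cadherin, had 6055 and 6702 counts, and EPCAM, another epithelial marker, had 2421 and 1556. Markers of other cell types were few. FOXJ1 of ciliated cells, PTPRC of leukocytes and COL1A2, COL3A1 and DCN of fibroblasts had no count in either library, and SCGB1A1 of secretory cells had 0 and 1. The 6 immune markers summed to 39.6 and 124 CPM (counts scaled to library size), and CD68, a lysosomal protein that epithelial cells can also make, held 619 and 2259 of those counts. The 7 fibroblast markers summed to 6.24 and 13.8 CPM and the 6 endothelial markers to 9.71 and 8.89. The 8 secretory markers summed to 22.3 and 20.5 CPM and the 8 ciliated markers to 1166 and 909, mostly TUBB4B, a tubulin that many cells make. The part of these shifts in the keratin results was not tested. In RNA from a whole culture, fewer cells with a transcript and less transcript per cell cannot be told apart.

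Of the 10 keratins, 9 had fewer counts in the CBS library, and KRT4 alone had more. Summed over the 10 genes, the keratins held 100680 counts against 184667. After scaling of the libraries this was 4722 against 9271 CPM, 1.96 times lower with CBS. The exact 95% interval of 1.95 to 1.98 covers counting error only, as do all intervals given here. In TPM, the level per transcript length that the authors give, the sum was 3564 against 6519, or 0.356% against 0.652% of all transcripts.

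Of the 10, 6 passed the filter of 10 counts or more in 1 library and a mean CPM of 1 or more. They were KRT5, KRT14, KRT15, KRT17, KRT6A and KRT6B, each with more than 100 counts in either library. All 6 had an interval below a ratio of 1, against 31.1% of the 13304 genes above the filter. Among the 4404 genes with at least 1000 counts in 1 library, 1630 had such an interval. Of the 6 keratins, 4 (KRT6B, KRT14, KRT15 and KRT17) were at least 2-fold lower, against 5.28% of all genes, or 2.95% of those 4404. None was at least 2-fold higher, against 1.41% of all genes. The median log2 fold of the 6 was -1.72, and that of all genes was 0.00. KRT16 lay just outside the filter, its mean of 8 and 33 counts falling just short of 1 CPM. KRT6C, KRT13 and KRT4 lay below it.

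**Figure D1:**
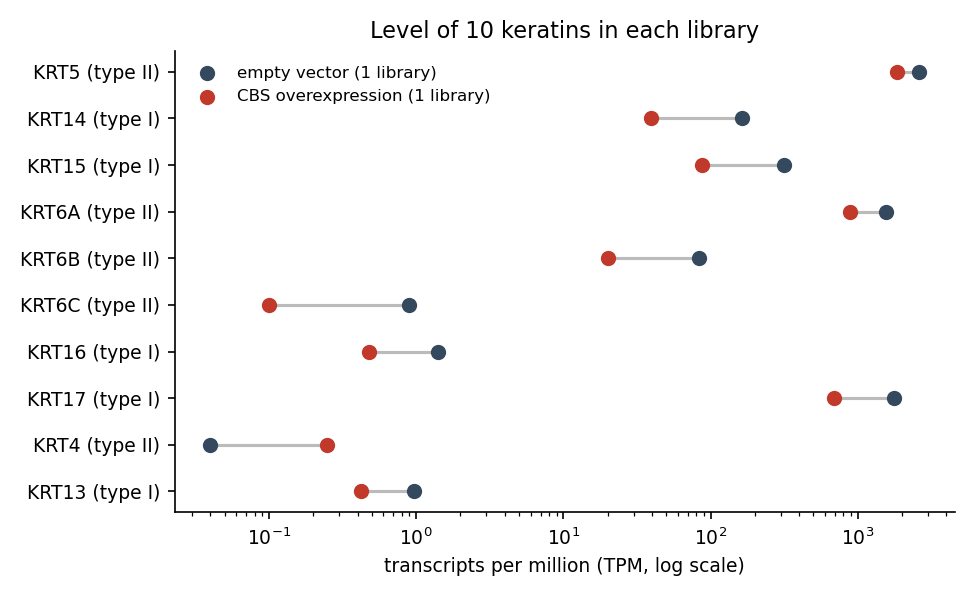
Level of each of the 10 keratins in TPM on a log scale, 1 point per library, joined by a grey line; no error can be shown with 1 library per group. The CBS point lies to the left of the empty-vector point for each gene but KRT4, and KRT6C, KRT16, KRT4 and KRT13 lie at or below 1.40 TPM in both libraries.

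Of the basal keratins, KRT5 was the most abundant member in both libraries and the 1 closest to equal between them. KRT5 (ENSG00000186081, GRCh38 chromosome 12, 52514575 to 52520687), the type II chain of basal cells, had 54419 counts against 83759. Its level was 1844 against 2620.1 TPM, which placed it at rank 71 and rank 42 among all rows. The scaled counts were 1.65 times lower with CBS (1.63 to 1.67), short of the 2-fold threshold, and the log2 fold was -0.72 (-0.74 to -0.70).

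The type I partners of KRT5 stood further apart. KRT14 (ENSG00000186847, chromosome 17, 41582279 to 41586921), the main partner of KRT5 in the basal layer of skin, had 918 counts against 3831. This was 39.1 against 163 TPM, and the scaled counts were 4.47 times lower (4.16 to 4.81). KRT15 (ENSG00000171346, chromosome 17, 41513743 to 41522529), a basal chain found in slow-cycling progenitors of several epithelia, had 1470 against 5287 counts. This was 86.9 against 314 TPM, 3.85 times lower in scaled counts (3.63 to 4.08). By TPM, KRT14 was at rank 3527 against rank 800, and KRT15 at rank 1696 against rank 399. Relative to KRT5, KRT14 was lowered a further 2.71 times (large-sample 95% interval of the counts 2.52 to 2.92) and KRT15 a further 2.34 times (2.20 to 2.48). In TPM the ratio of KRT5 to KRT14 was 47.1 with CBS and 16.1 with the empty vector. The size of this contrast depends on the unit, since KRT5 was 1.65 times lower in scaled counts and 1.42 times in TPM. KRT5 exceeded its classical partner by more than 10 times in either library.

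Of the stress keratins, KRT17 and KRT6A were the only ones above 100 TPM in both libraries. KRT17 (ENSG00000128422, chromosome 17, 41619437 to 41624842), a type I chain of wounded and hyperproliferative epithelium, had 14243 counts against 37362. Its level was 686 against 1777 TPM and its scaled counts were 2.81 times lower (2.75 to 2.86). KRT6A (ENSG00000205420, chromosome 12, 52487174 to 52493257), a type II chain of the same setting, had 28954 against 51591 counts. Its level was 886 against 1558 TPM, and its scaled counts were 1.91 times lower (1.88 to 1.93), under the 2-fold threshold. The ratio of KRT6A to KRT17 in TPM was 1.29 with CBS and 0.876 with the empty vector. Which gene was higher with the empty vector depended on the length used, since counts divided by coding length gave 1.56 and 1.06. Whether the difference in ratio exceeds the spread between cultures was not measured.

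KRT6B (ENSG00000185479, chromosome 12, 52446651 to 52452126), a close copy of KRT6A, had 653 counts against 2758. Its level was 20.1 against 83.7 TPM, and its scaled counts were 4.52 times lower (4.15 to 4.93), the largest ratio of the 6 keratins above the filter. The copies therefore did not shift alike, and KRT6B was lowered 2.37 times more than KRT6A (2.17 to 2.58). KRT6A exceeded KRT6B 44.0 times in TPM with CBS and 18.6 times with the empty vector. Because KRT6A gave most of the counts, the sum of KRT6A, KRT6B and KRT6C was 29610 against 54378 counts, 1.97 times lower (1.94 to 1.99).

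How well reads tell the KRT6 copies apart bears on that contrast, so their reference coding sequences were compared. The coding regions of KRT6A, KRT6B and KRT6C in GENCODE 29 are each 1695 bases long, and 1643 of these bases are the same in all of them. KRT6A and KRT6B are 97.5% identical and KRT6B and KRT6C 98.5%. The longest stretch without a difference spans 269 bases. Of all 100-base windows of the KRT6A transcript, 81.8% occur in no other gene, against 75.4% for KRT6B and 68.3% for KRT6C. At 50 bases these shares are 60.9%, 52.9% and 46.4%. The sources used here do not state the read length. The 60-base window inside 1 exon at which the copies differ most is printed so that the sites that separate them can be seen. It lies in exon 2 on the minus strand of GRCh38, at chr12:52491555-52491614 in KRT6A, chr12:52450439-52450498 in KRT6B and chr12:52472099-52472158 in KRT6C. Bases are written 5′ to 3′ along the transcript, and capitals mark the 9 positions that are not the same in all of them.
KRT6A: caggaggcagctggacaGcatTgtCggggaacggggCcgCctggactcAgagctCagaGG
KRT6B: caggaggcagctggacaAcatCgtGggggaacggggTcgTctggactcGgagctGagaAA
KRT6C: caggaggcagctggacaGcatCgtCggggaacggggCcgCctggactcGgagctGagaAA
Of the 1188 such windows compared, 396 had no difference at all. A read that reaches no differing base can only be shared out by the authors' estimate. How many reads this concerns depends on the read length, and the intervals do not cover it. The counts of KRT6B and KRT6C are therefore less certain than their intervals show.

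KRT6C (ENSG00000170465, chromosome 12, 52468516 to 52473785), the third copy, was near the limit of detection. It had 3 counts against 29, or 0.10 against 0.89 TPM. Its scaled counts were 10.3 times lower with a wide interval (3.21 to 53.1). KRT16 (ENSG00000186832, chromosome 17, 41609778 to 41615899), the usual type I partner of the KRT6 chains in wounded skin, was also scarce. It had 8 against 33 counts and 0.48 against 1.40 TPM. Its scaled counts were 4.42 times lower (2.00 to 11.1), against 2.92 times lower in TPM. KRT17 exceeded KRT16 by far in both libraries, so KRT17 was the main type I stress keratin of these cells by transcript level.

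KRT14, KRT16 and KRT17 are also related copies, and KRT16 and KRT17 have pseudogenes. Their coding sequences differ more than those of the KRT6 genes. KRT14 and KRT16 are 86.6% identical over their aligned bases, KRT14 and KRT17 84.8% and KRT16 and KRT17 78.8%. The longest stretch that all of them share spans 53 bases. At 100 bases, 94.0% of KRT14 windows, 92.8% of KRT16 windows and 99.7% of KRT17 windows occur in no other gene. The window in which they differ most is given for comparison with the KRT6 window. It lies in exon 8 on the minus strand, near the end of the coding region, at chr17:41582444-41582503 in KRT14, chr17:41609938-41609997 in KRT16 and chr17:41619603-41619662 in KRT17. Capitals mark its 41 positions that are not the same in all of them.
KRT14: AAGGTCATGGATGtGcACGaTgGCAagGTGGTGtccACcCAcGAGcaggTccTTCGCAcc
KRT16: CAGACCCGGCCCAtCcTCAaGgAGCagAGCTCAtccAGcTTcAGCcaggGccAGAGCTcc
KRT17: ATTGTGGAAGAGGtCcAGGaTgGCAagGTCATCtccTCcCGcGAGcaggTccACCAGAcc
The 14 pseudogene rows of KRT16 and KRT17 together held 5 counts against 30. KRT17P1 had 1 against 11 of them and KRT16P4 had 1 against 10. Summed with these rows, KRT14, KRT16 and KRT17 had 15174 against 41256 counts, 2.91 times lower (2.86 to 2.97).

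The mucosal pair was almost absent. KRT13 (ENSG00000171401, chromosome 17, 41500981 to 41505705), the type I chain, had 3 counts against 16, 5.71 times lower (1.63 to 30.6). In TPM it was 0.42 against 0.97, only 2.31 times lower. KRT4 (ENSG00000170477, chromosome 12, 52806549 to 52814551), the type II chain, had 9 counts against 1, 8.41 times higher (1.17 to 369) at 0.25 against 0.04 TPM. Neither gene was above 1 TPM in either library, and at this depth their direction rests on a handful of reads.

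**Figure D2:**
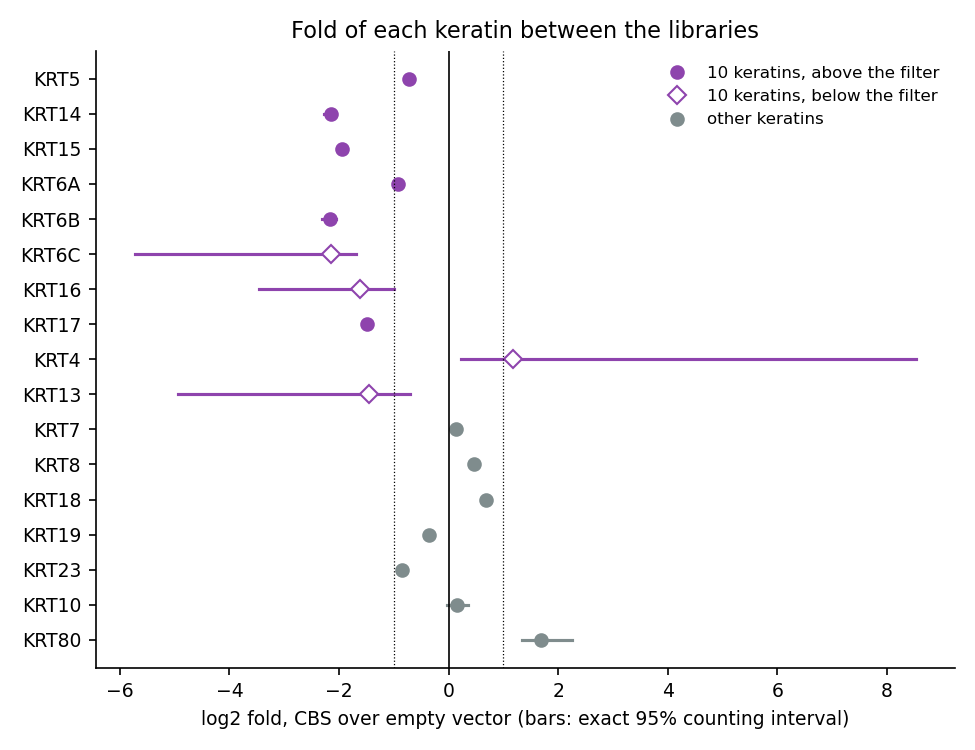
Log2 fold of CBS over empty vector for the 10 keratins (purple) and 7 other keratins (grey), with exact 95% counting intervals as bars; open diamonds lie below the filter and dotted lines mark 2-fold. KRT14, KRT15, KRT6B and KRT17 lie left of the lower dotted line with narrow bars, while the bars of KRT6C, KRT16, KRT13 and KRT4 are wide.

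By TPM the order with the empty vector was KRT5, KRT17, KRT6A, KRT15, KRT14, KRT6B, KRT16, KRT13, KRT6C and KRT4. With CBS, KRT6A stood above KRT17 in TPM and KRT4 above KRT6C, and the order was otherwise the same. KRT5, KRT6A and KRT17 together made up 95.9% of the TPM of the 10 genes with CBS and 91.4% with the empty vector. The share of KRT5 alone was 51.7% against 40.2%, and that of KRT17 was 19.3% against 27.3%. With 1 library each, neighbours in this order cannot be compared with their spread.

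Among the 13304 genes above the filter, 0.556% had a lower log2 fold than KRT6B, 0.586% a lower one than KRT14 and 0.887% a lower one than KRT15. For KRT17, KRT6A and KRT5 the shares were 2.09%, 6.17% and 9.85%. Against the 4404 genes with at least 1000 counts in 1 library, the share was 0.204% for KRT6B and 5.72% for KRT5. Each of the 6 keratins lay lower among these abundant genes than among all genes.

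**Figure D3:**
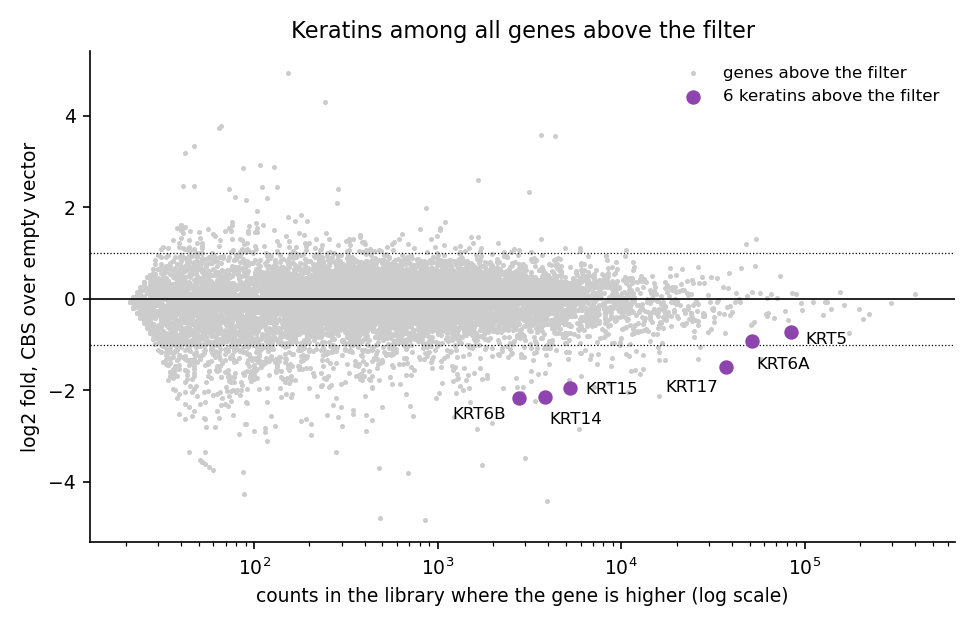
Log2 fold of CBS over empty vector against the counts in the library where the gene is higher (log scale), 1 grey point per gene above the filter, with the 6 keratins above the filter in purple and dotted lines at 2-fold. All 6 lie below 0, and KRT6B, KRT14, KRT15 and KRT17 lie below the lower dotted line.

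The type I members were lower by more than the type II members. The 5 type I genes (KRT14, KRT15, KRT17, KRT16 and KRT13) summed to 813 TPM with CBS and 2256 with the empty vector, 2.99 times lower in scaled counts (2.94 to 3.05). The 5 type II genes (KRT5, KRT6A, KRT6B, KRT6C and KRT4) summed to 2751 against 4262 TPM, 1.76 times lower in scaled counts (1.74 to 1.77). In TPM the type I and type II sums were 2.77 and 1.55 times lower. Type I made up 22.8% of the members' TPM with CBS and 34.6% with the empty vector. The excess of type II over type I was 3.38 times and 1.89 times.

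Over all keratins that excess was not seen. The other type I keratins, mostly KRT18, KRT19 and KRT23, summed to 5508 TPM with CBS and 5406 with the empty vector. In scaled counts the same genes were slightly lower with CBS, at 5292 against 5722 CPM, so their direction depended on the unit. The other type II keratins, mostly KRT7 and KRT8, summed to 3530.1 against 2801 TPM and 3970.2 against 3312 CPM. With these included, type II over type I was 0.994 with CBS and 0.922 with the empty vector. The 10 members made up 28.3% of all keratin TPM with CBS and 44.3% with the empty vector. All 56 keratin rows together were 1.31 times lower in scaled counts with CBS (1.303 to 1.315) and 1.17 times lower in TPM.

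**Figure D4:**
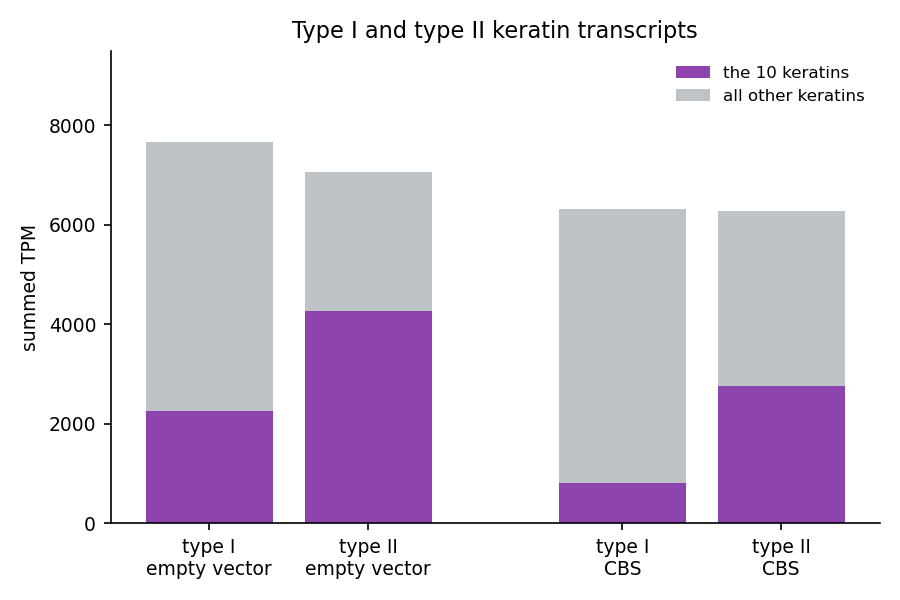
Summed TPM of type I and type II keratins in each library, with the 10 keratins in purple and all other keratins stacked in grey; each bar is 1 library and has no error. The purple part is 2256 with the empty vector and 813 with CBS for type I, and 4262 and 2751 for type II, while the full bars of the 2 types are close in height within each library.

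The other keratins with at least 100 counts did not share the members' direction as a group. KRT18 and KRT8, the pair of simple epithelium, had log2 folds of 0.68 (0.66 to 0.70) and 0.46 (0.44 to 0.49). Their summed share of all keratin TPM was 28.1% with CBS and 14.7% with the empty vector. KRT7, the type II chain of ducts and glands, was at 0.14 (0.12 to 0.16), and KRT10, a type I chain of the upper epidermis, at 0.16 (-0.03 to 0.36). KRT19, a type I chain of simple and basal cells, was at -0.35 (-0.37 to -0.33) and KRT23 at -0.84 (-0.87 to -0.81). KRT80, a type II chain, was the only keratin above the filter to pass 2-fold upwards, from 195 counts against 53, at 1.69 (1.34 to 2.25). Of the 17 hair keratins, 16 had fewer than 10 counts in both libraries.

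The members lie in the keratin clusters of chromosomes 17 and 12, where each type is arrayed with other keratins. Neighbours could differ. KRT15 and KRT19 are 1.09 kb apart, and their log2 folds were -1.94 and -0.35. Within 250 kb of the type I members, 9 genes that are not keratins were above the filter, none at least 2-fold lower or higher, with a median log2 fold of -0.08 and a range of -0.71 to 0.69. Around the type II members there were 8 rows without a keratin name, with a median of -0.33 and a range of -1.16 to 0.36. Some of them lie inside keratin genes, so these values are partly drawn from keratin loci. Unnamed rows ENSG00000281415 and ENSG00000257671 lie within the bounds of KRT7 and were at 0.36 and -0.52. The lowest of these 8 was an unnamed row of 129 bases that lies wholly inside an exon of KRT6A (ENSG00000281194, 343 against 722 counts). A similar row inside an exon of KRT5 (ENSG00000280827) was at -0.64, from 859 against 1253 counts. These rows amounted to 1.18% to 1.58% of the counts of the keratin around them, and adding them left the log2 folds of KRT5 and KRT6A at -0.72 and -0.93.

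Keratin filaments are tied to desmosomes, the spots that join cells, and to hemidesmosomes, which hold cells to the matrix. Of 19 genes for these anchors and other keratin-binding proteins, none was at least 2-fold apart between the libraries. Over all genes above the filter, only 5.28% were at least 2-fold lower and 1.41% higher. The median log2 fold of the 19 was -0.31. The whole interval lay below 1 for 14 genes, against 31.1% of all genes, and above 1 for 4, against 4199 of all 13304 genes. The members furthest from 1 were JUP, the desmosomal plakoglobin, at -0.71 (-0.74 to -0.68) and COL17A1, a hemidesmosomal collagen, at -0.64 (-0.67 to -0.60). DSC2, a desmosomal cadherin, was at -0.58 (-0.78 to -0.39) and PKP3, a plakophilin, at -0.54 (-0.61 to -0.48).

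Of 22 measured transcription factors known to act on keratin genes or on epithelial layering, 5 were at least 2-fold lower and none higher. Over all genes these shares were 5.28% and 1.41%. The median of the 22 was -0.54. The whole interval lay below 1 for 14 of them and above 1 for 5, against 4144 and 4199 of all 13304 genes. SOX2, named after its values were seen as the highest of the 22, was at 0.80 (0.56 to 1.06). FOS, an AP-1 subunit, was at -2.70 (-2.90 to -2.55) and JUNB, another, at -1.22 (-1.31 to -1.15). KLF4, a factor of terminal layers, was at -1.70 (-2.04 to -1.44) and ELF3, an epithelial ETS factor, at -1.23 (-1.47 to -1.03). KLF5, named after its values were seen because it completes the 5, was at -1.17. TP63, also singled out after its values were seen, was at -0.04 (5136 against 4946 counts). KRT5 and KRT14, known targets of TP63, were at -0.72 and -2.15. The part of TP63 or of the other factors in the keratin levels was not tested.

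Markers of the layers above the basal cells were mostly lower and of low level. Of 7 measured squamous genes, 5 were at least 2-fold lower, against 5.28% of all genes, and none higher, with a median of -1.92. TGM1, which cross-links the cornified envelope, was at -2.67 (-3.54 to -2.29), from 26 against 180 counts. The kallikrein proteases KLK7 and KLK5 were at -1.92 (-2.27 to -1.67) and -1.34 (-2.00 to -0.91). SCEL, a precursor of the envelope, was at 0.01 (-0.06 to 0.07). SPRR1B and FLG, named after their values were seen, completed the 5 at -2.32 and -2.08.

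Other basal cell genes went in both directions. The median of 13 measured was -0.17, with a range of -1.31 to 1.01. The whole interval lay below 1 for 8 of them and above 1 for 3, against 4144 and 4199 of all 13304 genes. At least 2-fold lower were 2, against 5.28% of all genes, and 1 was higher, against 1.41%. LAMB3, a laminin chain of the basement membrane, was lowest at -1.31 (-1.33 to -1.28). PDPN, a surface glycoprotein, was highest at 1.01 (0.73 to 1.36) and NGFR, a receptor of basal progenitors, at 0.93 (0.83 to 1.04). The basal keratins KRT14 and KRT15 were thus lower than each of these 13 genes.

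Intermediate filament genes outside the keratins were mixed, with the whole interval below 1 for 2 genes and above 1 for 4. Over all 13304 genes above the filter, 4144 and 4199 had such intervals. Of 6 measured, 1 was at least 2-fold higher, against 1.41% of all genes, and none lower, with a median of 0.24. LMNB1, a lamin of the nuclear envelope, was at 0.86 (0.78 to 0.95), LMNB2 at 0.35 (0.29 to 0.40) and LMNA at 0.13 (0.09 to 0.17). VIM, the filament of mesenchymal cells, was at -0.71 (-0.95 to -0.50), from 268 against 413 counts. SYNM, named after its values were seen, was the 1 above 2-fold, with 56 against 15 counts.

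**Figure D5:**
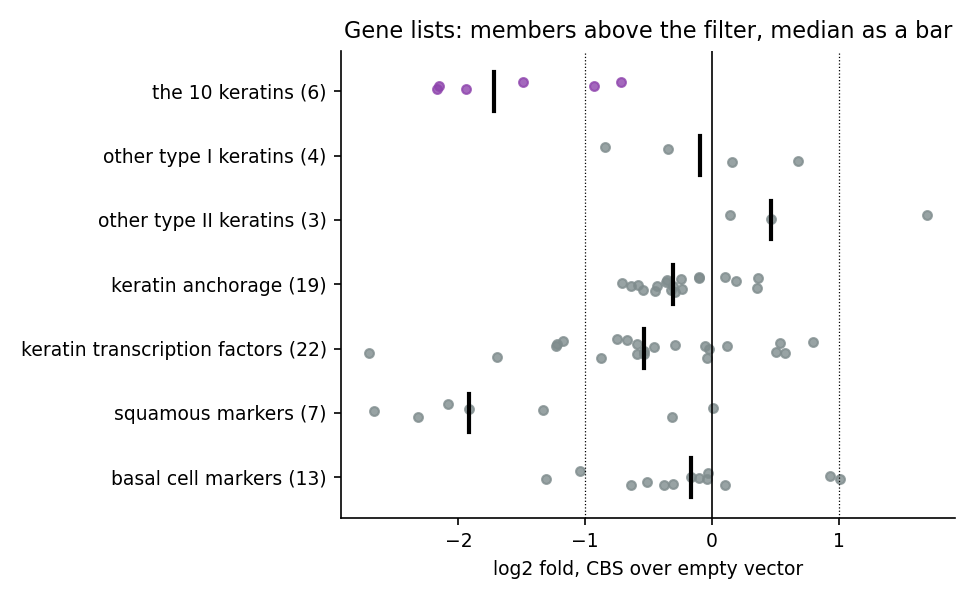
Log2 fold of CBS over empty vector for the genes above the filter in 7 lists, 1 point per gene, with the list's median as a black bar, the number of genes in brackets and dotted lines at 2-fold. The medians are -1.72 for the 10 keratins, -0.09 for the other type I and 0.46 for the other type II keratins. They are -0.31 for the anchoring genes, -0.54 for the transcription factors, -1.92 for the squamous markers and -0.17 for the basal cell markers.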

How the data were processed

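RNA of 2 HBEC-3KT cultures was sequenced on the DNBseq platform, per the labels' protocols. Trimmomatic 0.39, STAR 2.6.1d, RSEM 1.3.2 and GRCh38 are named, with no roles, in the submitters' processing notes. Read length, strandedness and the annotation used are not given in the sources used here. Deposited values were the authors' expected counts, of which 15.5% and 15.7% of rows are not whole, and the authors' TPM values. Expected counts were rounded. Libraries were scaled by TMM (edgeR 4.0.16, R 4.3.3) and no count model was used. Log2 folds carry a prior count of 5, and ratios and exact 95% intervals (Clopper-Pearson, conditional binomial) carry none. Intervals cover counting error only, since each group held 1 library. Amplified reads are not independent molecules, so the intervals may be too narrow even for that. A gene was at least 2-fold apart when its log2 fold reached 1 in size and its interval excluded a ratio of 1. The calculation was tested on simulated data.

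The members and gene lists were chosen with earlier results of these data known. Named genes were the members, other keratins with at least 100 counts, pseudogene rows with at least 10, CBS, and in each list up to 4 genes of 100 counts or more, those furthest from a log2 fold of 0. One gene that this rule names is not reported here. With 2 libraries no gene was named for a similar pattern. Secretory and ciliated markers had 1 and 3 genes above the filter, SPDEF at 0.17 and TUBB4B at 0.36 among them. CD14 of the immune list was at 0.05, COL1A1 of the fibroblast list at -1.10 and EGFL7 of the endothelial list at -0.54. CDH5 of the endothelial list, named after its values were seen, was at 2.86 (87 against 7 counts). Coding sequences came from GENCODE 29 and were aligned with Biopython 1.88. Python 3.11.15 and scipy 1.17.1 were used. Alternatives were DESeq2 1.42.0 size factors, library totals, log2(TPM + 1), prior counts of 1 and 20, other filters and fold thresholds, summed copies, and a lowess trend on GC content and length (statsmodels 0.14.6) removed.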

Additional observations from a re-analysis of the deposited data

How the results depend on the processing

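KRT14, KRT15, KRT17 and KRT6B stayed at least 2-fold lower under each scaling, prior count, TPM and the removal of the GC and length trend, with log2 folds of -2.16 to -1.97, -1.94 to -1.83, -1.49 to -1.36 and -2.17 to -2.00. KRT5 (-0.72 to -0.51) and KRT6A (-0.93 to -0.81) stayed under 2-fold. In log2(TPM + 1) the median of all genes was itself 0.09. There KRT6C was at -0.78, KRT16 at -0.70, KRT13 at -0.47 and KRT4 at 0.27, all under 2-fold, and a prior count of 20 gave -0.97 for KRT16, -0.67 for KRT13 and 0.45 for KRT4. Summing KRT6A, KRT6B and KRT6C gave -0.98 for all of them. With counts divided by coding length, type I made up 20.9% of the members with CBS and 30.8% with the empty vector. On that scale, chosen after seeing the data, type II over type I was 3.80 and 2.24 for the members and 1.03 and 0.980 for all keratins. KRT6A over KRT17 was 1.56 with CBS and 1.06 with the empty vector there, so the latter passed to the other side of 1.

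Of the keratins, 2 were lower at 4-fold, and without a filter 7 were lower and 1 higher at 2-fold. Over all genes, those lower numbered 377 in TPM, 1712 at 1.5-fold, 105 at 4-fold, 1221 without a filter and 460 with at least 100 counts, against 703. Those higher numbered 934 at 1.5-fold, 23 at 4-fold, 466 without a filter and 112 with at least 100 counts, against 188. Of the list genes outside the members, 1 was higher with at least 100 counts, against 5. No paired analysis was possible because each group held 1 library, which also means that no library could be left out. Depth limits KRT6C, KRT16, KRT13 and KRT4, whose intervals span several-fold.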
